A study of Macaca mulatta with 10 samples.

Results

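The genes described here build and drive cell division: the kinases that start mitosis, the proteins that fold chromosomes, the spindle, the kinetochores and the machinery that parts the daughter cells. They were followed in whole testes of juvenile rhesus macaques (Macaca mulatta) after infusion of gonadotropin. The list named 56 genes, of which 48 had a row of their own in the count table, out of 13197 loci that stand for a symbol and 26813 loci in all. A gene was matched by its symbol, and of several loci with that symbol the one with the highest mean count was taken. A further 6 genes (CCNA2, PLK1, SMC4, CENPA, BUB1B and AURKB) shared a locus with a neighbouring gene and are described apart, and KIF4A and NCAPH were not analysed here. The matching used no fold change, but the list was drawn up with earlier results of these data known.

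All 10 animals were wild type, and by the animal numbers in the labels each library came from a separate animal. Vehicle went to 3 animals, TP07, TP09 and TP11, aged 24, 14 and 15 months, and the labels do not say for how long each received it. FSH and LH, the pituitary gonadotropins that act on Sertoli and Leydig cells, were infused together in pulses for 48 h in TP08, TP10 and TP12, aged 22, 14 and 15 months. The same infusion ran for 96 h in TP15, TP16, TP17 and TP18, all 14 months old. Values of single animals are given in this order throughout. Levels are counts scaled to a common library size (CPM) with TMM scaling, which corrects library totals for the makeup of each library. Every difference is a log2 fold change from edgeR's quasi-likelihood test, with a standard error. That error was derived here as the size of the fold change over the square root of the test's F statistic. A gene was called where its p-value, adjusted by Benjamini-Hochberg over all 26813 loci, was below 0.05.

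In dividing cells these genes are mostly transcribed late in the cycle, after DNA has been copied, and some of their proteins are destroyed as the cell leaves mitosis. Cyclin-dependent kinase with its B-type cyclins starts mitosis, condensins and topoisomerase shape the chromosomes, and kinetochores tie them to spindle microtubules. A checkpoint holds separation back until all are tied, the anaphase-promoting complex then releases it, and the central spindle and a contractile ring finish cytokinesis. In the juvenile primate testis both Sertoli cells and spermatogonia can divide, and whole-tissue RNA does not say which cells the transcripts came from. In such RNA, more dividing cells and more RNA of these genes per cell cannot be told apart.

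Library totals ran from 21824233 to 30375928 counts. Of the markers of the labelled tissue, 12 Sertoli, 6 Leydig and 13 germ cell genes were measured and detected in every library. Within their groups TP11 and TP12, the 15-month-old animals, stood above the others: TP12 had the highest level among the 48 h animals for 48 of 48 genes, and TP11 the highest among vehicle animals for 42 of 48. The animals at 96 h carry higher animal numbers than all others, so a batch by number would coincide with the infusion time, and the labels give no way to tell them apart.

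Nearly all division genes were higher at 96 h, and few had passed the test at 48 h. At 96 h against vehicle 45 of the 48 genes rose, against 17.2% of all symbol loci, and 0 fell, against 6.66%. Their median log2 fold change was 1.45, and that of all symbol loci 0.08. At 48 h against vehicle 5 of 48 rose and 0 fell, and their median was 0.29, that of all symbol loci being 0.08 again. The 5 genes are 10.4% of the 48, below the 14.8% of all symbol loci that rose at 48 h (3.21% fell), so the count by itself is no result about these genes. Over all symbol loci 1955 rose and 424 fell at 48 h and 2272 rose and 879 fell at 96 h against vehicle, and with upper-quartile scaling these were 1175 and 849 at 48 h and 1343 and 1811 at 96 h, with library totals only 1398 and 626 at 48 h and 1332 and 1639 at 96 h. Upper-quartile scaling shifted the median of all symbol loci by -0.13 at 48 h and -0.15 at 96 h, and library totals shifted it by -0.15 at 96 h. Relative to that median, 38 of the 48 genes lay above it at 48 h and 48 of 48 at 96 h under upper-quartile as under TMM scaling. Between the times, at 96 h against 48 h, 41 of 48 rose, against 1.11% of all symbol loci, and 0 fell, against 0.455%. The medians of this comparison were 1.20 for the 48 genes and -0.02 for all symbol loci. The shares of all symbol loci given here also stand beside the counts by role, and of early and late genes, below. An unadjusted p below 0.05, in either direction, held for 4530 of the 13197 symbol loci at 48 h against vehicle. There 17 of the 48 genes had such a p, a like share. Such counts at 48 h are by themselves no result about these genes. At 96 h against 48 h it held for 3186 symbol loci and for 46 of the 48 genes. DESeq2, exactTest and voom also called 0 of the 48 lower in the 3 comparisons, and 0 had a negative estimate with an unadjusted p below 0.05 in edgeR. The 48 genes together summed to 1063, 1029 and 1425 CPM in vehicle animals, 1313, 1236 and 1882 CPM at 48 h and 3228, 3514, 3805 and 3396 CPM at 96 h. Every 96 h animal lay above every other animal, whereas the 48 h and vehicle animals overlapped.

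**Figure D1:**
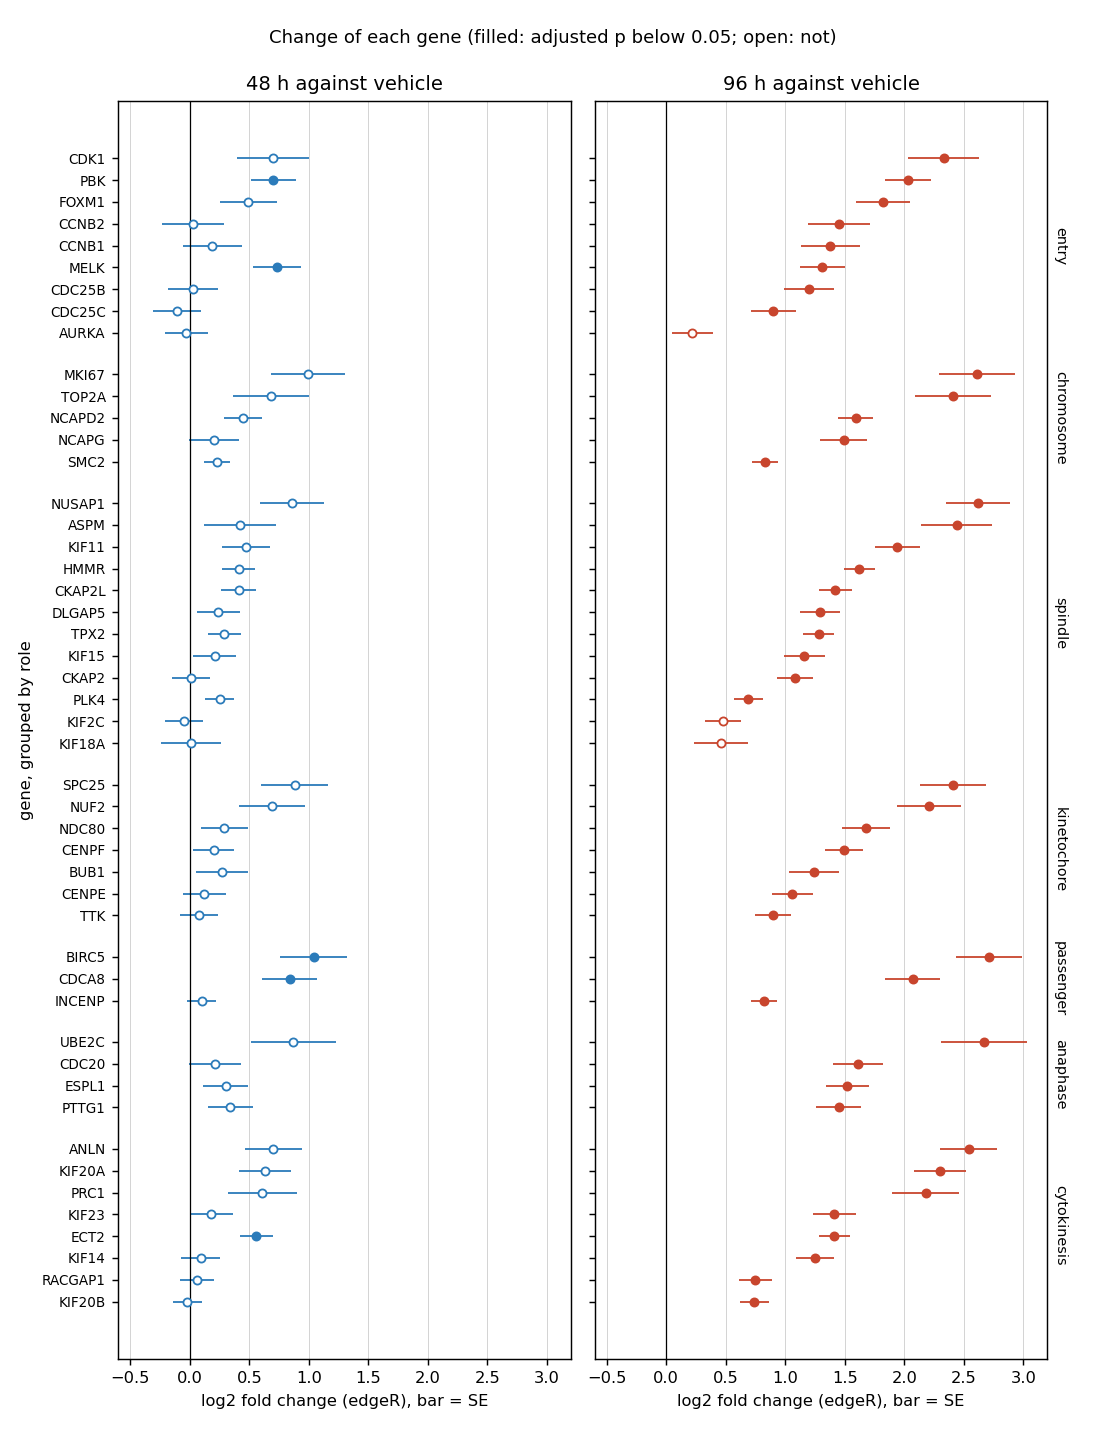
Log2 fold change of each of the 48 genes (horizontal axis, points with SE bars; filled where the adjusted p is below 0.05) at 48 h against vehicle on the left and at 96 h against vehicle on the right, grouped by role down the page. At 48 h 5 genes are filled; at 96 h only AURKA, KIF2C and KIF18A are open.

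The calls of single genes at 96 h against 48 h depended on single animals. Without TP08 or without TP17 edgeR called 0 of the 48 genes, although 46 had an unadjusted p below 0.05 in either case, and without TP10 it called 1 (45 by unadjusted p). The median log2 fold change was 1.13 without TP08, 1.15 without TP17 and 1.11 without TP10, against 1.20 with all animals. Without TP15 27 genes were called and without TP18 21. With age as a covariate the count was 21, and without both animals over 20 months it was 0 (46 by unadjusted p). With all animals DESeq2 called 45 and exactTest 43 of the 48 genes, and at an adjusted p of 0.01 edgeR called 1. The count at 96 h against vehicle ran from 44 to 46 over the alternatives tried. In the authors' deposited table, 9 of the 48 genes were higher at a false discovery rate of 0.05 at 48 h against vehicle, 45 at 96 h against vehicle and 43 at 96 h against 48 h, and 0 were lower.

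Among genes of mitotic entry, CDK1, the kinase whose activation starts mitosis (chromosome 9, 71940166 to 71961930 on rheMac8), was at 11.1, 13.5 and 24.7 CPM in vehicle animals, 19.4, 25.1 and 35.4 CPM at 48 h and 70.2, 83.8, 96.9 and 80.2 CPM at 96 h. Each 96 h animal lay above every 48 h and vehicle animal, while TP11 of the vehicle group overlapped the 48 h animals. Its log2 fold change was 2.33 ± 0.30 at 96 h against vehicle (edgeR adjusted p = 0.00111), 1.64 ± 0.29 at 96 h against 48 h (edgeR adjusted p = 0.0317) and 0.70 ± 0.30 at 48 h against vehicle (edgeR adjusted p = 0.159). CCNB1 and CCNB2 encode the B-type cyclins that CDK1 needs. CCNB1 was at 15, 14 and 26.2 CPM in vehicle animals, 19.4, 15.6 and 28.1 CPM at 48 h and 45.9, 45.4, 52.4 and 47.5 CPM at 96 h. CCNB2 was at 7.79, 9.06 and 14.6 CPM in vehicle animals, 9.68, 7.86 and 14.7 CPM at 48 h and 28.6, 25.3, 27.9 and 33.3 CPM at 96 h. Neither cyclin separated the 48 h from the vehicle animals, and both were higher in every 96 h animal. CCNB1 rose by 1.38 ± 0.25 and CCNB2 by 1.45 ± 0.26 at 96 h against vehicle, and at 96 h against 48 h CCNB2 passed with 1.42 ± 0.26 while CCNB1 did not (1.19 ± 0.24, edgeR adjusted p = 0.0512).

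FOXM1, a transcription factor that drives genes of G2 and mitosis, was at 6.51, 5.87 and 7.82 CPM in vehicle animals, 7.72, 7.07 and 13.6 CPM at 48 h and 27.2, 23.8, 21.5 and 22.8 CPM at 96 h. At 96 h all animals lay above the rest, and at 48 h TP12 lay above the vehicle animals while TP08 and TP10 lay within their range. FOXM1 rose at 96 h against vehicle (1.82 ± 0.23) and against 48 h (1.33 ± 0.22). The phosphatases CDC25B and CDC25C remove the brake on CDK1. CDC25C, with the lowest fold change of all 48 genes at 48 h (-0.11 ± 0.20, not called), was at 9.87, 7.51 and 10.3 CPM in vehicle animals, 8.77, 6.21 and 10.7 CPM at 48 h and 15.7, 18.5, 17.6 and 17.1 CPM at 96 h. Its 96 h animals lay above all others, and its 48 h and vehicle animals overlapped. CDC25C rose at 96 h against vehicle by 0.90 ± 0.19, and CDC25B rose by 1.20 ± 0.21. The mitotic kinases MELK and PBK were 2 of the 5 genes that had risen by 48 h, with 0.73 ± 0.20 and 0.70 ± 0.19 (edgeR adjusted p = 0.0366 and 0.0351). MELK at 96 h against vehicle had risen by 1.31 ± 0.19 and PBK by 2.03 ± 0.19. MELK was the only gene of the 48 whose estimated step was larger before 48 h than after it. Its later step was 0.57 ± 0.19, and the difference between the steps, which share the 48 h libraries, was not tested. The 48 h and vehicle animals overlapped for MELK, with TP10 at 18.6 CPM and TP11 at 19.3 CPM.

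AURKA, the kinase that matures the spindle poles, passed in no comparison. Its level was 18, 14.8 and 19.4 CPM in vehicle animals, 17, 12.9 and 21.1 CPM at 48 h and 18.5, 20.3, 19.5 and 22.3 CPM at 96 h, and the 3 groups overlapped. Its log2 fold change was 0.22 ± 0.17 at 96 h against vehicle (edgeR adjusted p = 0.391), -0.03 ± 0.18 at 48 h against vehicle and 0.25 ± 0.17 at 96 h against 48 h (edgeR adjusted p = 0.406). Of the 9 entry genes 8 rose at 96 h against vehicle, 6 at 96 h against 48 h and 2 at 48 h against vehicle.

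**Figure D2:**
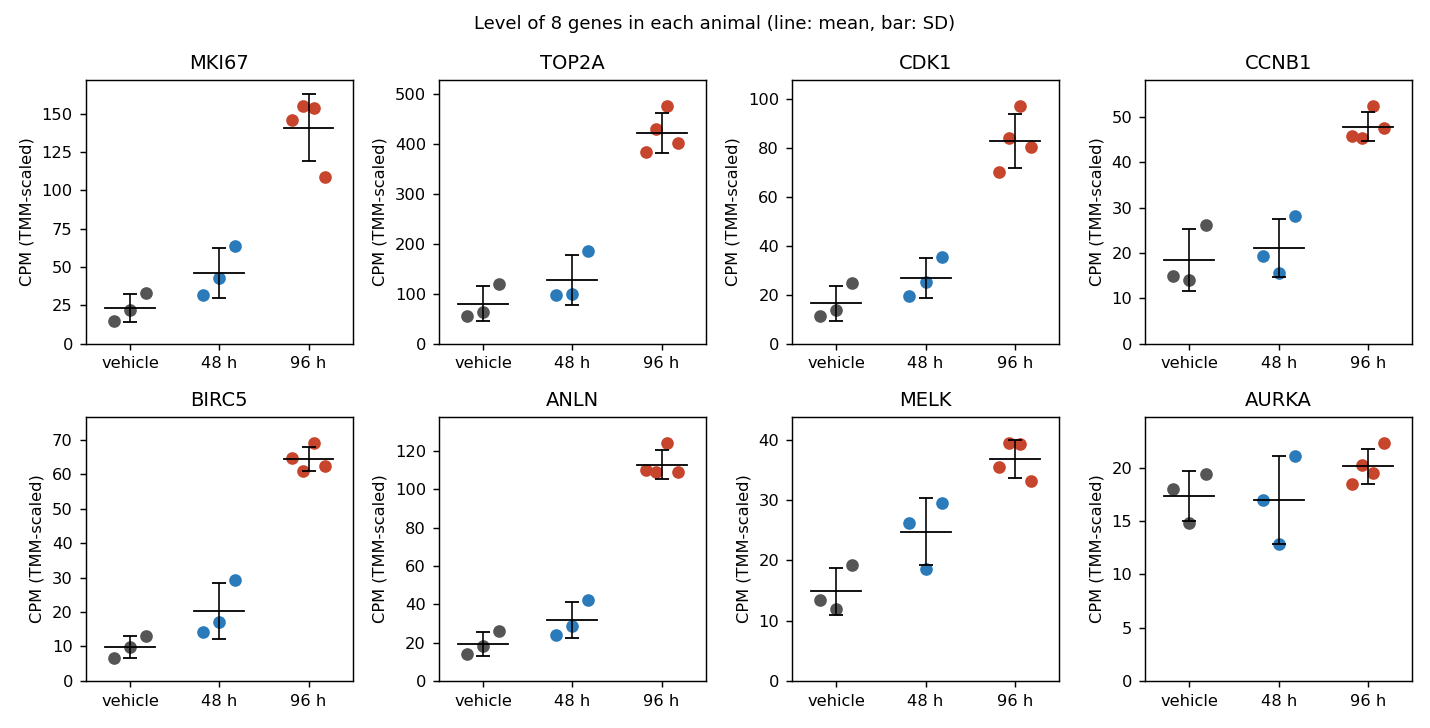
Level of 8 genes in each animal (CPM with TMM scaling, vertical axis from 0) under vehicle, at 48 h and at 96 h; the line is the mean and the bar the SD. MKI67, TOP2A, CDK1, CCNB1, BIRC5, ANLN and MELK are higher in each of the 4 animals at 96 h than in any other, and AURKA overlaps between all groups. BIRC5 and MELK were called at 48 h against vehicle. Only for BIRC5 does every 48 h animal lie above every vehicle animal.

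Among genes of chromosome structure, MKI67, which coats mitotic chromosomes and is the usual marker of dividing cells (chromosome 9, 124197684 to 124242638), was at 14.6, 21.7 and 33.2 CPM in vehicle animals, 31.9, 42.6 and 63.6 CPM at 48 h and 146, 155, 154 and 109 CPM at 96 h. The 96 h animals were all above every other animal, TP18 being the lowest of them, and TP11 overlapped the 48 h animals. MKI67 rose by 2.61 ± 0.32 at 96 h against vehicle and 1.61 ± 0.30 at 96 h against 48 h. Its estimate at 48 h against vehicle was 0.99 ± 0.31 and did not pass (edgeR adjusted p = 0.0699). TOP2A, the topoisomerase that untangles sister chromatids (chromosome 16, 46212392 to 46248878), was at 55.5, 63.4 and 120 CPM in vehicle animals, 97, 100 and 186 CPM at 48 h and 384, 430, 476 and 402 CPM at 96 h. Per kilobase of exon its mean level was the highest of the 48 genes in the 96 h animals, at 71.4 CPM per kb, against 13.5 CPM per kb in vehicle animals. Every 96 h animal lay above the rest, and TP11 overlapped the 48 h animals. TOP2A rose by 2.41 ± 0.32 at 96 h against vehicle and 1.73 ± 0.31 at 96 h against 48 h.

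The condensin subunits fold chromatin into compact chromosomes. NCAPG, a subunit of condensin I, was at 31.6, 33.9 and 48.3 CPM in vehicle animals, 38.4, 34.7 and 57.9 CPM at 48 h and 95.1, 100, 108 and 123 CPM at 96 h. Every 96 h animal lay above the rest. A weaker locus on the other strand also carries its symbol, and the labels do not state whether counting used strand, so reads of both may mix. NCAPG rose by 1.49 ± 0.20, NCAPD2 by 1.59 ± 0.15 and SMC2, an ATPase common to both condensins, by 0.83 ± 0.11 at 96 h against vehicle. No chromosome gene passed edgeR's test at 48 h against vehicle (0 of 5, with 2 at an unadjusted p below 0.05; DESeq2 called 2 and exactTest 1), and at 96 h against either earlier group 5 of 5 rose.

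Among spindle genes, KIF11, the motor that pushes spindle poles apart, was at 19.9, 20.4 and 29.9 CPM in vehicle animals, 27.2, 27.5 and 42.4 CPM at 48 h and 83.3, 85.2, 99.2 and 91.7 CPM at 96 h. TPX2, which nucleates microtubules near chromosomes and activates Aurora A, was at 28.6, 25 and 33.2 CPM in vehicle animals, 35.8, 28.6 and 41.6 CPM at 48 h and 69.4, 67.9, 70.6 and 73.4 CPM at 96 h. ASPM, a spindle pole protein, was at 24.6, 33 and 52.3 CPM in vehicle animals, 40.4, 38.3 and 68 CPM at 48 h and 177, 223, 231 and 163 CPM at 96 h. For all 3 genes each 96 h animal was above every other animal, and TP11 overlapped the 48 h animals. Their log2 fold changes at 96 h against vehicle were 1.94 ± 0.19 for KIF11, 1.28 ± 0.13 for TPX2 and 2.44 ± 0.30 for ASPM. ASPM had the largest log2 fold change of the 48 genes at 96 h against 48 h, 2.02 ± 0.29 (edgeR adjusted p = 0.0177). NUSAP1, which bundles microtubules at chromatin, was at 8.32, 10.9 and 17 CPM in vehicle animals, 17.8, 17.8 and 30.2 CPM at 48 h and 76.4, 67.5, 83.8 and 69.9 CPM at 96 h. No groups overlapped for it, although TP11 lay close below the 48 h animals. Its rise at 96 h against vehicle, 2.62 ± 0.27, was the largest after BIRC5 and UBE2C, and at 48 h against vehicle it did not pass (0.86 ± 0.27, edgeR adjusted p = 0.0631).

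KIF2C and KIF18A, with AURKA, had the smallest differences at 96 h against vehicle. KIF2C, which takes microtubules apart at kinetochores to correct faulty attachments, was at 29.8, 21.4 and 25 CPM in vehicle animals, 25.3, 19.5 and 28.6 CPM at 48 h and 30.9, 37.9, 34.3 and 38.4 CPM at 96 h. KIF18A, a motor that damps chromosome movement, was at 13.4, 12.6 and 16.8 CPM in vehicle animals, 15, 9.2 and 18.8 CPM at 48 h and 15.9, 19.9, 24.5 and 18.1 CPM at 96 h. Neither passed at 96 h against vehicle, with 0.48 ± 0.15 for KIF2C (edgeR adjusted p = 0.0539) and 0.46 ± 0.23 for KIF18A (edgeR adjusted p = 0.189). KIF2C was higher in each 96 h animal than in each vehicle animal, and KIF18A overlapped between the groups. PLK4, the kinase of centriole duplication, was at 37.2, 34.1 and 38 CPM in vehicle animals, 45.9, 35.9 and 48.1 CPM at 48 h and 50.9, 59.3, 62.2 and 62.7 CPM at 96 h. Its 96 h animals lay above all others, and TP10 lay within the vehicle range. It rose by 0.69 ± 0.12 at 96 h against vehicle and did not pass at 96 h against 48 h (0.44 ± 0.12, edgeR adjusted p = 0.0965). The remaining 5 spindle genes rose at 96 h against vehicle, from CKAP2, a microtubule-binding protein, with 1.08 ± 0.15 to HMMR, which helps orient the spindle, with 1.62 ± 0.13. At 48 h against vehicle edgeR called 0 of the 12 spindle genes (4 at an unadjusted p below 0.05, 3 by DESeq2 and 1 by exactTest). Between CKAP2 and HMMR at 96 h lay the motor KIF15 (1.16 ± 0.17), the microtubule-associated DLGAP5 (1.29 ± 0.17) and CKAP2L, a spindle protein (1.42 ± 0.14).

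Of the kinetochore genes, NDC80, NUF2 and SPC25 are subunits of the complex that grips microtubules. NDC80 was at 6.67, 7.94 and 9.34 CPM in vehicle animals, 7.99, 8.05 and 13.2 CPM at 48 h and 25.6, 26.2, 26 and 24.8 CPM at 96 h. SPC25 was at 4.43, 5.79 and 9.63 CPM in vehicle animals, 10.5, 9.67 and 16.5 CPM at 48 h and 32.8, 34.4, 40.6 and 32.9 CPM at 96 h. Both were higher in each 96 h animal than in any other, and SPC25 did not overlap between 48 h and vehicle, with TP10 just above TP11. SPC25, with an estimate of 0.88 ± 0.28 at 48 h against vehicle, did not pass there (edgeR adjusted p = 0.0631). Between 96 h and vehicle SPC25, which has a weaker locus of the same symbol on the other strand, rose by 2.41 ± 0.28, NUF2 by 2.21 ± 0.27 and NDC80 by 1.68 ± 0.20.

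CENPF, a large protein of the outer kinetochore, was at 94, 85.7 and 117 CPM in vehicle animals, 101, 94.8 and 145 CPM at 48 h and 244, 289, 306 and 273 CPM at 96 h. The checkpoint kinase BUB1 was at 25, 16.9 and 27.6 CPM in vehicle animals, 26, 21.1 and 36.7 CPM at 48 h and 47, 52.5, 59.9 and 59.6 CPM at 96 h. Both separated the 96 h animals from all others and overlapped between 48 h and vehicle. CENPF rose by 1.49 ± 0.16 and BUB1 by 1.24 ± 0.21 at 96 h against vehicle, and against 48 h CENPF passed with 1.29 ± 0.16 while BUB1 did not (0.97 ± 0.21, edgeR adjusted p = 0.0574). The motor CENPE and the checkpoint kinase TTK rose by 1.06 ± 0.17 and 0.90 ± 0.15 at 96 h against vehicle. Of 7 kinetochore genes 7 rose at 96 h against vehicle, 6 at 96 h against 48 h and 0 by edgeR at 48 h against vehicle (2 at an unadjusted p below 0.05, 1 by DESeq2 and 1 by exactTest).

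The chromosomal passenger complex, Aurora B with INCENP, survivin and borealin, moves from centromeres to the midzone. BIRC5, which encodes survivin (chromosome 16, 72036435 to 72049744), was at 6.57, 9.78 and 13.1 CPM in vehicle animals, 14.2, 17.1 and 29.4 CPM at 48 h and 64.8, 61, 68.9 and 62.4 CPM at 96 h. All 3 of the 48 h animals lay above all vehicle animals, and all 4 of the 96 h animals above both. It had the largest rise of the 48 genes at 48 h against vehicle, 1.04 ± 0.28 (edgeR adjusted p = 0.0376), and at 96 h against vehicle, 2.71 ± 0.28 (edgeR adjusted p = 0.000412). CDCA8, which encodes borealin, rose by 0.84 ± 0.23 at 48 h and 2.07 ± 0.23 at 96 h against vehicle. INCENP, the scaffold, rose by 0.82 ± 0.11 at 96 h against vehicle and 0.72 ± 0.11 at 96 h against 48 h, with an estimate of 0.10 ± 0.12 at 48 h against vehicle that did not pass.

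Of the anaphase genes, CDC20, the activator of the anaphase-promoting complex, was at 9.41, 8.42 and 11.9 CPM in vehicle animals, 9, 9.13 and 16.1 CPM at 48 h and 32.3, 28.3, 31.3 and 28.9 CPM at 96 h. UBE2C, the ubiquitin-conjugating enzyme of that complex, was at 2.58, 4.51 and 6.88 CPM in vehicle animals, 6.17, 6.13 and 13.2 CPM at 48 h and 29, 28, 31 and 30.7 CPM at 96 h. PTTG1, securin, which holds separase inactive until anaphase, was at 10.6, 9.14 and 12.8 CPM in vehicle animals, 12.4, 10.9 and 18 CPM at 48 h and 34, 27.5, 30 and 27.6 CPM at 96 h. All 3 were higher in each 96 h animal than in any other, and all 3 overlapped between 48 h and vehicle. Reads of PTTG1 could also come from near-identical copies, which makes its level uncertain. UBE2C rose by 2.67 ± 0.36 at 96 h against vehicle and 1.80 ± 0.34 at 96 h against 48 h, exceeded by BIRC5 in the first and by ASPM and ANLN in the second. CDC20 rose by 1.61 ± 0.21, PTTG1 by 1.45 ± 0.19 and ESPL1, separase, by 1.52 ± 0.18 at 96 h against vehicle. By 48 h, against vehicle, 0 of these 4 genes passed edgeR's test (1 at an unadjusted p below 0.05) or that of DESeq2 or exactTest.

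Of the cytokinesis genes, PRC1, which bundles the microtubules of the central spindle, was at 19.6, 19.9 and 35.4 CPM in vehicle animals, 29.3, 29.3 and 55.7 CPM at 48 h and 102, 110, 125 and 116 CPM at 96 h. KIF20A, the motor that brings passenger proteins to the midzone, was at 8.52, 9.22 and 13 CPM in vehicle animals, 13.2, 12.3 and 22.1 CPM at 48 h and 53.8, 48.2, 51.4 and 48.9 CPM at 96 h. ANLN, anillin, which scaffolds the contractile ring (chromosome 3, 72302714 to 72367644), was at 13.9, 18.2 and 26.2 CPM in vehicle animals, 24.2, 28.6 and 42.1 CPM at 48 h and 110, 109, 124 and 109 CPM at 96 h. For PRC1 and KIF20A as for ANLN, the 96 h animals did not overlap with any other. The rises at 96 h against vehicle were 2.18 ± 0.28 for PRC1, 2.30 ± 0.22 for KIF20A and 2.54 ± 0.24 for ANLN. RACGAP1, which with KIF23 forms the centralspindlin complex, was at 37.6, 29.4 and 37.5 CPM in vehicle animals, 35.5, 29.5 and 44.1 CPM at 48 h and 58.2, 56.5, 59.3 and 60.6 CPM at 96 h. Its 96 h animals lay above all others, and its 48 h and vehicle animals overlapped. RACGAP1 rose by 0.75 ± 0.14 and KIF23 by 1.41 ± 0.18 at 96 h against vehicle. ECT2, which centralspindlin recruits to switch on the ring, was the 1 cytokinesis gene of 8 called at 48 h against vehicle, with 0.56 ± 0.14 (edgeR adjusted p = 0.0222), and had risen by 1.41 ± 0.13 at 96 h. KIF14 and KIF20B, motors of the midbody, rose by 1.25 ± 0.16 and 0.74 ± 0.12 at 96 h against vehicle. All 8 cytokinesis genes rose at 96 h against either earlier group.

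**Figure D3:**
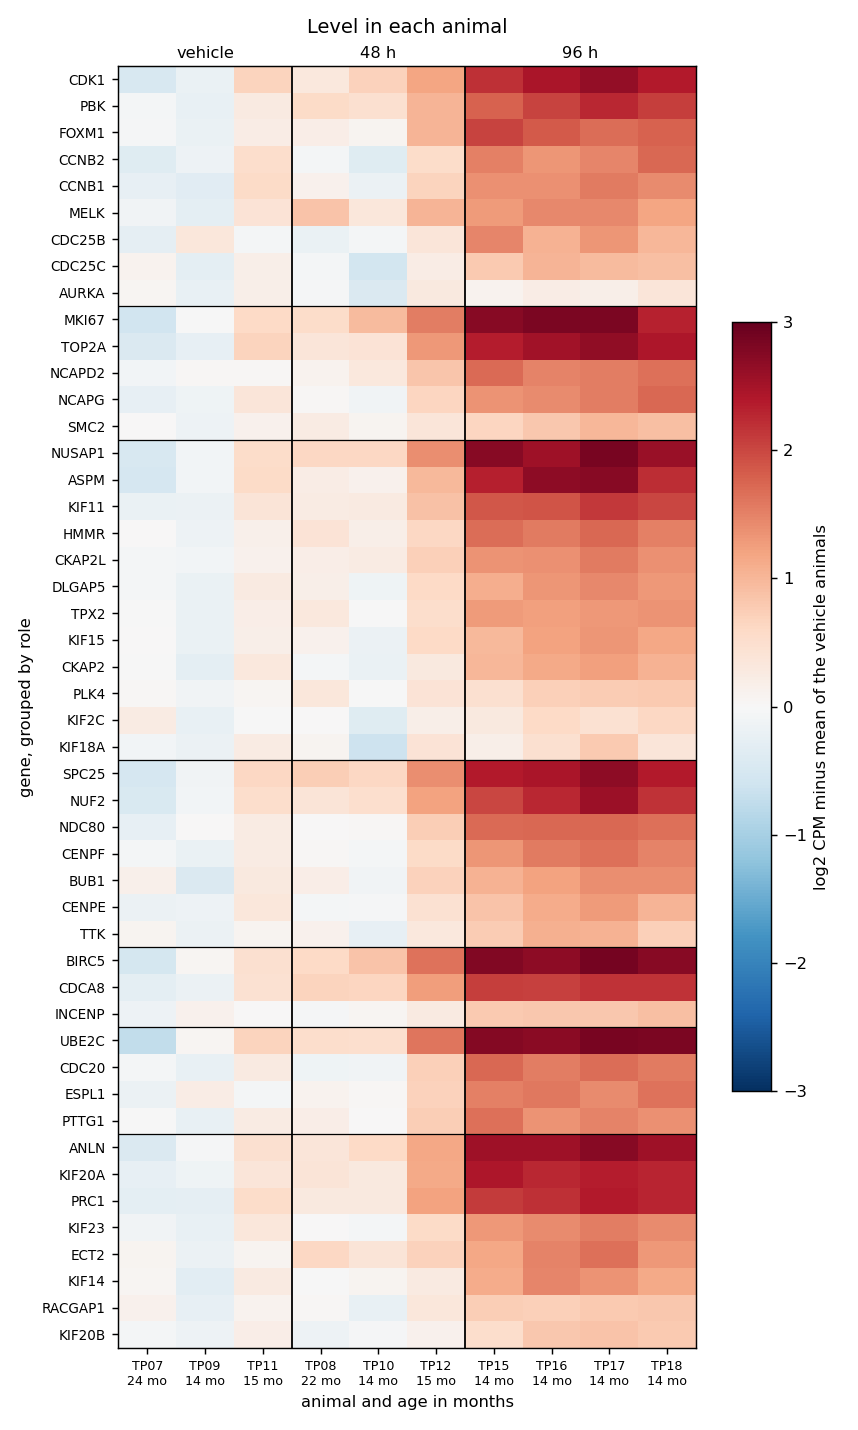
Level of each of the 48 genes (rows, grouped by role) in each of the 10 animals (columns, with age in months), as log2 CPM minus the mean of the vehicle animals on a colour scale from -3 to 3. The 4 columns at 96 h are red for nearly all genes, AURKA is pale throughout, and TP11 and TP12 are the reddest columns of the vehicle and 48 h groups.

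The 5 genes called at 48 h against vehicle (BIRC5, CDCA8, MELK, PBK and ECT2) did not hold under every setting. No gene of the 48 was called by edgeR under upper-quartile scaling, without TP09, without TP12, without both animals over 20 months or at an adjusted p of 0.01, with, in that order, 10, 10, 8, 14 and 17 genes at an unadjusted p below 0.05. In the main fit 4530 of the 13197 symbol loci had such a p, and their number in the other fits is not given here. The number of the 48 genes called was 1 without TP07, in a fit of both groups alone or with library totals only, and 2 without TP08. In the other direction it was 12 without TP11, 10 without both 15-month-old animals, 17 with age class as a block, 9 with age as a covariate, 9 with exactTest and 13 with DESeq2. Omission of single animals moved the median from 0.10 (without TP12) to 0.42 (without TP10 or TP11). The libraries of the 48 h group all lay above those of the vehicle group for 9 of the 48 genes, and this held for 29.2% of all symbol loci. At 96 h it held for 46 of 48 genes against vehicle (24.8% of all symbol loci) and for 46 of 48 against 48 h (8.14%).

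Animals of like age can be set side by side. Between the 14-month-old animals 39 of 48 genes were higher in TP10 (48 h) than in TP09 (vehicle), with a median log2 ratio of 0.22. At 15 months 45 of 48 were higher in TP12 than in TP11, with a median of 0.43, and over 20 months 40 of 48 were higher in TP08 than in TP07, with a median of 0.27. These are single animals and carry no test, the genes of a pair are not separate observations, and the share of all symbol loci higher in each pair was not counted. In the fit of all animals, 7726 of the 13197 symbol loci and 44 of the 48 genes had a positive estimate at 48 h against vehicle. Among the 14-month-old animals alone the genes summed to 1029 CPM in TP09, 1236 CPM in TP10 at 48 h and 3228 to 3805 CPM in the 4 animals at 96 h.

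The timing of genes that act early and late in mitosis was then compared. Whole tissue was sampled at 48 h and 96 h only, so a difference in timing within a single mitosis could not be seen. The 33 early genes are those of entry, chromosome structure, spindle and kinetochores, the 12 late genes those of anaphase and cytokinesis, and the 3 passenger genes act throughout and belong to neither. Median log2 fold changes at 48 h against vehicle were 0.27 for early genes (range -0.11 to 0.99) and 0.32 for late genes (-0.02 to 0.87), and 2 of 33 and 1 of 12 rose. With 1 animal left out they ran from 0.10 to 0.41 for early genes and from 0.09 to 0.45 for late genes, and without TP12 they were 0.10 for early and 0.09 for late genes. The medians at 96 h against vehicle were 1.42 (0.22 to 2.62) and 1.49 (0.74 to 2.67), and 30 of 33 and 12 of 12 rose. Between the times, at 96 h against 48 h, they were 1.17 (0.25 to 2.02) and 1.22 (0.69 to 1.83), and 26 of 33 and 12 of 12 rose. The ranges overlapped in every comparison, and the 3 genes that edgeR did not call at 96 h against vehicle were all early ones. DESeq2 called 31 of the 33 early genes in that comparison. At 96 h against 48 h it called 30 early genes, and exactTest and voom each called 28. These tools called 12 of 12 late genes in both comparisons. In each animal the summed CPM of late genes was between 0.271 and 0.303 of that of early genes: 0.303, 0.293 and 0.283 in vehicle animals, 0.282, 0.298 and 0.277 at 48 h and 0.284, 0.273, 0.271 and 0.283 at 96 h. The groups overlapped in this ratio as well.

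Genes that act before mitosis were compared in the same way. Of 34 measured genes of S phase (40 listed), which copy DNA or supply its building blocks, 28 rose at 48 h against vehicle and 29 at 96 h against vehicle. Of all symbol loci 14.8% and 17.2% rose in these comparisons. The median log2 fold changes of the 34 genes were 0.79 and 0.94. Between 48 h and 96 h 3 of the 34 rose (8.82%, against 1.11% of all symbol loci), among them TYMS and RRM2, and the median was 0.19. At an unadjusted p below 0.05 there were 14 of the 34, 1 of them with a negative estimate. Such a p, in either direction, held for 3186 of the 13197 symbol loci. For 11 of the 34 every 96 h animal lay above every 48 h animal, which held for 8.14% of all symbol loci. MCM3, a subunit of the replicative helicase, had log2 fold changes of 1.45 ± 0.13 at 48 h and 1.41 ± 0.12 at 96 h against vehicle. TYMS, which makes thymidylate, had 1.77 ± 0.18 and 2.78 ± 0.18. Estimated steps were larger after 48 h than before it for 47 of the 48 division genes and for 3 of the 34 S phase genes, and both steps share the 48 h libraries. For the 49 other mitotic genes described below, the later step was larger in 33 and the earlier in 16. The share over all symbol loci was not counted. Without both animals over 20 months 12 S phase genes rose at 48 h against vehicle, with a median of 0.72. The S phase count at 96 h against 48 h was 0 to 6 over the alternatives.

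Summed over the 34 genes, S phase transcripts came to 868.4 to 1054 CPM in vehicle animals, 1414 to 1787 CPM at 48 h and 1733 to 1913 CPM at 96 h. The ratio of division to S phase transcripts was 1.12, 1.19 and 1.35 in vehicle animals, 0.735, 0.874 and 1.08 at 48 h and 1.86, 1.84, 2.05 and 1.82 at 96 h. The 3 groups did not overlap, with the 48 h animals lowest and the 96 h animals highest. This ratio is taken within a library, so scaling between libraries does not enter it.

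**Figure D4:**
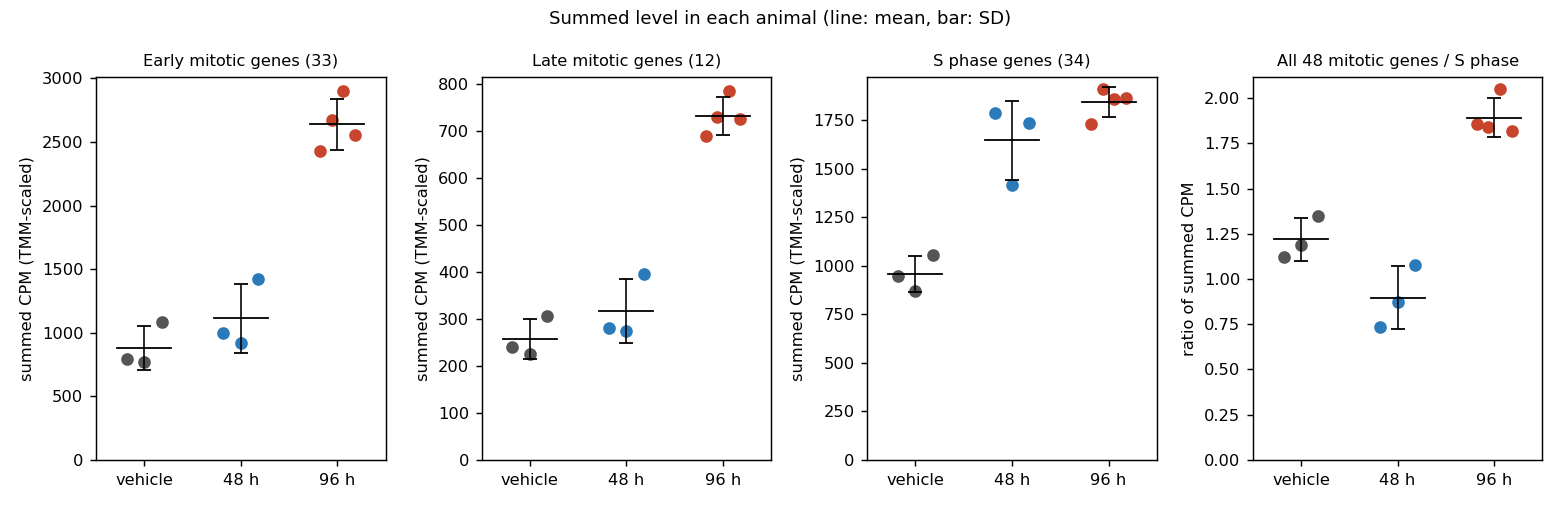
Summed CPM (TMM-scaled) of the 33 early and 12 late mitotic genes and of the 34 S phase genes, and the ratio of all 48 division genes to S phase genes, in each animal under vehicle, at 48 h and at 96 h; the line is the mean and the bar the SD. In S phase genes every 48 h animal lies above every vehicle animal, in early and late mitotic genes these groups overlap and every 96 h animal lies above both, and the ratio is lowest at 48 h (0.735 to 1.08).

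**Figure D5:**
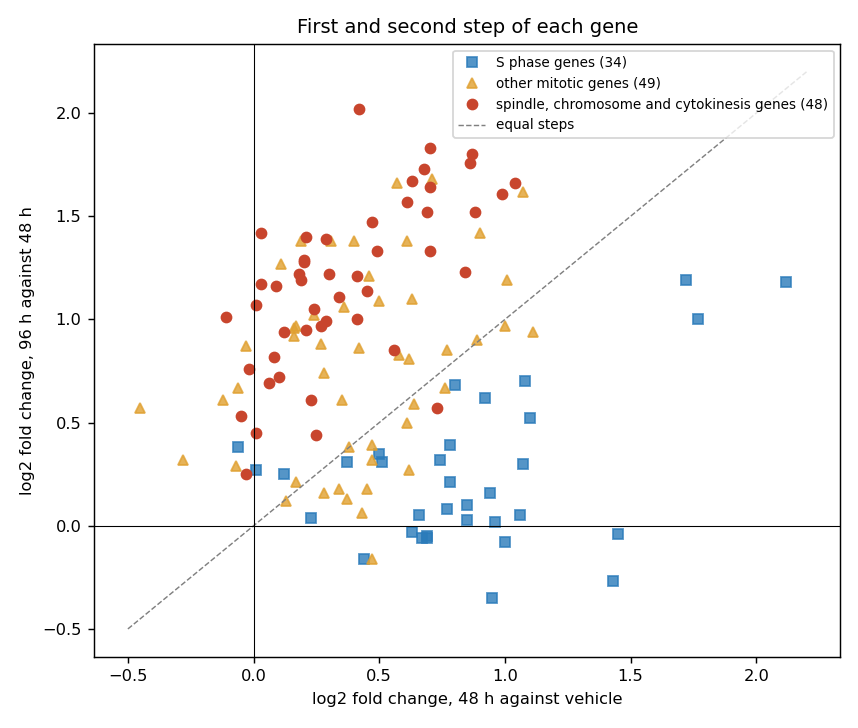
Log2 fold change at 48 h against vehicle (horizontal axis) and at 96 h against 48 h (vertical axis) for the 48 division genes, 49 other mitotic genes and 34 S phase genes; the dashed line marks equal steps. Division genes other than MELK lie above the line, and 31 of the 34 S phase genes lie below it. Of the other mitotic genes 33 lie above the line and 16 below.

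Other genes of mitosis were taken from a second list of 60, of which 49 were measured. Of these 42 rose (85.7%, against 17.2% of all symbol loci) and 0 fell at 96 h against vehicle, and the median log2 fold change was 1.15. Among them LMNB1, a lamin of the nuclear envelope, had 1.10 ± 0.08, and CENPI and CENPM, proteins of the inner kinetochore, had 1.79 ± 0.15 and 1.62 ± 0.14. Fewer passed at 48 h against vehicle, where 14 rose and 1 fell (CENPC, an inner kinetochore protein, -0.45 ± 0.09), and the median was 0.42. The 14 are 28.6%, against 14.8% of all symbol loci. The rises included LMNB1 (0.61 ± 0.08), CENPI (0.89 ± 0.15) and CENPN (0.76 ± 0.14). Between 48 h and 96 h 25 rose (51.0%, against 1.11% of all symbol loci) and 0 fell, and the median was 0.85. ARHGAP11A and GAS2L3, which act on the cytoskeleton in cytokinesis, and TROAP, a spindle protein, had the smallest p-values, with 1.38 ± 0.18, 0.92 ± 0.13 and 1.68 ± 0.24. Without both animals over 20 months 1 of these genes rose at 48 h and 0 at 96 h against 48 h. The later count was 0 also without TP08, TP10 or TP17, 12 without TP15, 6 without TP18 and 8 with age as a covariate, and the median stayed between 0.75 and 0.84 in these 7 fits. The earlier count was 8 without TP07, TP08 or TP09 or under upper-quartile scaling, 6 without TP12 and 4 without both 15-month-old animals. In the other direction it was 20 with DESeq2 or age class as a block and 16 with RLE scaling. The later count was 34 with DESeq2 or exactTest and 28 with voom.

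Together the 2 mitotic lists held 66 of the 146 symbol loci that rose at 96 h against 48 h (45.2%), 41 from the first and 25 from the second. Both lists were chosen with earlier results of these data known, so this share is no independent result. Without TP08 edgeR called 0 genes of either list in this comparison. Subunits of the anaphase-promoting complex itself, which CDC20 activates, were counted as well. Of 13 measured subunits 1 rose at 48 h (ANAPC11, 0.87 ± 0.11) and 2 at 96 h against vehicle (ANAPC11, 0.68 ± 0.10, and CDC27, 0.30 ± 0.07). These are 7.69% and 15.4%, below the 14.8% and 17.2% of all symbol loci, so the counts are no result about the subunits. Between 48 h and 96 h edgeR called 0, with 1 at an unadjusted p below 0.05, and DESeq2 and exactTest called 0. Their medians were 0.14, 0.09 and -0.09 at 48 h against vehicle, 96 h against vehicle and 96 h against 48 h.

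The genes that share a locus with a neighbour are uncertain, because their reads could not be divided. The locus of BUB1B, a checkpoint kinase, with PAK6 was at 22.5, 22 and 29.6 CPM in vehicle animals, 35.3, 30.5 and 45.4 CPM at 48 h and 70.4, 88.5, 77.5 and 70.8 CPM at 96 h. The locus of AURKB, the kinase of the passenger complex, with an unnamed neighbour was at 6.9, 7.9 and 8.82 CPM in vehicle animals, 13, 10.1 and 12.8 CPM at 48 h and 20.4, 21.1, 22.2 and 22.5 CPM at 96 h. In both the 96 h animals lay above all others and the 48 h above the vehicle animals. By 96 h, against vehicle, they rose by 1.63 ± 0.16 and 1.45 ± 0.14. The locus of CCNA2, cyclin A2, with BBS7 was at 61.1, 61.4 and 72.8 CPM in vehicle animals, 82.7, 81.6 and 96.6 CPM at 48 h and 121, 120, 142 and 130 CPM at 96 h and rose by 0.98 ± 0.10 at 96 h against vehicle. The locus of SMC4, a condensin ATPase, with an unnamed neighbour was at 106, 108 and 132 CPM in vehicle animals, 147, 157 and 162 CPM at 48 h and 226, 275, 325 and 269 CPM at 96 h and rose by 1.24 ± 0.13 at 96 h against vehicle. The locus of CENPA, the centromeric histone, with SLC35F6 rose by 1.18 ± 0.10 at 96 h against vehicle. For these 3 loci too the 96 h animals lay above all others. PLK1, the polo kinase of mitosis, shared its locus with DCTN5, which was at 136, 119 and 130 CPM in vehicle animals, 189, 155 and 155 CPM at 48 h and 155, 179, 158 and 162 CPM at 96 h. By 48 h, against vehicle, 5 of the 6 shared loci had passed, all but that of SMC4 (0.43 ± 0.13, edgeR adjusted p = 0.0549). Of all symbol loci 14.8% rose at 48 h, and of all loci 8.53%. The edgeR adjusted p of the 5 ran from 0.0083 (CENPA) to 0.0421 (BUB1B). How these calls hold under other settings is not given here. The locus of PLK1 rose by 0.35 ± 0.10 at 96 h against vehicle, and at 96 h against 48 h its log2 fold change was -0.02 ± 0.09 (edgeR adjusted p = 0.901). Its 96 h and 48 h animals overlapped.

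Markers of several cell types moved over the same samples, and their part in the division genes' values was not tested. Beside the marker counts below stand the shares of all symbol loci. Of those loci 14.8% rose and 3.21% fell at 48 h, and 17.2% rose and 6.66% fell at 96 h against vehicle. Leydig cell genes summed to 242.4 to 393.6 CPM in vehicle animals, 1619 to 1986 CPM at 48 h and 1227 to 1525 CPM at 96 h. Of 6 measured, 5 rose at 48 h against vehicle (STAR, CYP17A1, INSL3, HSD17B3 and NR5A1) and all of these but NR5A1 also at 96 h. Germ cell genes summed to 629.2 to 725.6 CPM in vehicle animals, 394.9 to 508.5 CPM at 48 h and 339.6 to 484 CPM at 96 h. Of these 13 genes 2 fell at 48 h (GFRA1, -1.67 ± 0.23, and DAZL, -0.86 ± 0.17) and 9 at 96 h against vehicle, among them GFRA1 (-1.03 ± 0.21), MAEL (-1.04 ± 0.22) and DDX4 (-0.84 ± 0.18). The count of 9 was 3 without TP07 or TP11, 5 without TP17 or in a fit of both groups alone, 4 with age as a covariate, 1 with age class as a block or without both animals over 20 months and 0 without both 15-month-old animals. The median log2 fold change of the germ cell genes, -0.74 with all animals, lay between -0.75 and -0.52 in these fits.

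Sertoli cell genes summed to 2750 to 3317 CPM in vehicle animals, 2954 to 3452 CPM at 48 h and 2740 to 3152 CPM at 96 h, which overlapped. Of 12, 3 rose at 48 h (INHA, CLDN11 and DMRT1) and 3 at 96 h against vehicle (INHA, CLDN11 and SOX9), and CLU fell at 96 h (-0.35 ± 0.11). Each count of 3 is 25.0%, against 14.8% and 17.2% of all symbol loci. Peritubular and smooth muscle genes summed to 563.4 to 632.9 CPM in vehicle animals, 911.3 to 1236 CPM at 48 h and 792.8 to 1521 CPM at 96 h. Of 6, TAGLN, ACTA2 and MYLK rose at both times against vehicle and DES at 96 h. Macrophage genes summed to 124.7 to 240.9 CPM in vehicle animals, 203.5 to 291.9 CPM at 48 h and 253.7 to 434.2 CPM at 96 h. Of 8, PTPRC, CD14 and C1QA rose at 96 h against vehicle, and edgeR called 0 at 48 h (1 at an unadjusted p below 0.05, 1 by DESeq2 and 1 by exactTest). Endothelial genes summed to 58.52 to 92.14 CPM in vehicle animals, 59.32 to 128.2 CPM at 48 h and 50.83 to 115 CPM at 96 h, and edgeR, DESeq2 and exactTest called 0 of 6 in each comparison, with 0 at an unadjusted p below 0.05. Between 48 h and 96 h edgeR called 0 genes of these 6 marker lists, with 5 Sertoli, 4 germ cell, 2 macrophage, 1 Leydig and 1 peritubular gene at an unadjusted p below 0.05. Such a p held for 3186 of the 13197 symbol loci, so these small counts are by themselves no result about the markers. DESeq2 called 2 Sertoli genes and 1 peritubular gene lower and 2 macrophage genes higher in that comparison. No marker gene of any list was at 0 in any library.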

How the data were processed

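RNA from whole testis of 10 juvenile rhesus macaques was sequenced from stranded libraries of total RNA. Per the submitters' processing notes, the rheMac8 build was used with HTSeq 0.6.1p1, edgeR, Cufflinks 2.2.1, Bowtie2 2.2.8, TopHat2 2.1.1 and cutadapt 1.9.1. The authors deposited raw counts per locus, with their own log2 fold changes and p-values adjusted as false discovery rates; whether counting used strand is not stated.

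The counts were fitted here in R 4.3.3 by the quasi-likelihood method of edgeR 4.0.16 (robust, TMM factors), all 10 libraries in 1 fit of the 3 groups, and Benjamini-Hochberg adjustment over 26813 loci. edgeR's filter on low counts left out 0 loci. Its biological coefficient of variation came to 0.259. Library totals were 21824233 to 30375928. No pair of libraries of 1 group agreed within sampling noise (chi-square per degree of freedom 15.8 to 49.6), so each counts as 1 replicate. Alternatives were RLE, upper-quartile and no scaling, 2 low-count filters, exactTest, DESeq2 1.42.0, limma voom 3.58.1, age terms, a fit of 2 groups alone, summed loci, a stricter threshold, and omission of animals. Omission of both 15-month-old animals was added after seeing the data. Only the main fit was tested on simulated data, at 96 h against vehicle and with the same coefficient of variation for every locus. Coordinates are those of the deposited annotation, with chromosome names assigned by the symbols each sequence shares with the RefSeq gene table.

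Per-animal values were chosen by a rule that takes key genes of each role and those with the most and least change; the rest have fold changes. For other lists the 3 called genes with the smallest p are named, and further called genes where a count of 5 or fewer was given; 1 S phase gene named by this rule is not reported here. Members and lists were chosen with earlier results of these data known.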

Additional observations from a re-analysis of the deposited data

Results flagged for a closer look

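In 2 of the 48 groups of 4 animals at 96 h, 1 animal lay far from the other 3 by Dixon's gap test, and chance alone marks about 1 in 20 groups. ANLN was at 124 CPM in TP17, against 109 to 110 CPM in the others (gap over range 0.941). CKAP2L was at 41.8 CPM in TP17, against 35.9 to 36.9 CPM (gap over range 0.832).

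The loci that join a mitotic gene with a neighbour were outside the 48 genes and passed edgeR's test as well. At 96 h against vehicle the log2 fold change was 1.63 for the locus of BUB1B, 1.45 for AURKB, 1.24 for SMC4, 1.18 for CENPA, 0.98 for CCNA2 and 0.35 for PLK1. At 48 h against vehicle it was 0.60 for AURKB, 0.58 for BUB1B, 0.55 for CENPA, 0.42 for CCNA2 and 0.37 for PLK1. How much of each came from the neighbour was not tested, and how these calls hold under other settings is not given here.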

How the results depend on the processing

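The number of the 48 genes called at 48 h against vehicle, 5, was 0 with upper-quartile scaling (10 at an unadjusted p below 0.05), without both animals over 20 months (14) or at an adjusted p of 0.01, and 1 with both groups alone or library totals only. It was 9 with exactTest or age as a covariate, 10 without both 15-month-old animals, 13 with DESeq2, 17 with age class as a block, and 0 (without TP09 or TP12) to 12 (without TP11) with 1 animal left out. The 41 genes called at 96 h against 48 h became 21 with age as a covariate, 0 without both animals over 20 months (46 at an unadjusted p below 0.05), 1 at an adjusted p of 0.01, and 0 to 43 with 1 animal left out. With age class as a block the early median was 1.68 at 96 h against vehicle and 1.40 against 48 h, and the late median 1.45 against 48 h. Without both 15-month-old animals that late median was 1.45, and with 1 animal left out it ran from 1.12 to 1.45 (without TP12). At 96 h against vehicle the count of the 48 genes and their median, and the late median, moved under the alternatives tried by less than 1.5 times or less than the spread between replicates.

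Signs turned in genes near 0 at 48 h against vehicle, none of them called. With upper-quartile scaling the log2 fold changes were -0.12 for KIF18A, -0.11 for CKAP2, -0.09 for CCNB2 and CDC25B, -0.06 for RACGAP1, -0.05 for TTK, -0.04 for KIF14, -0.03 for INCENP and -0.01 for CENPE. With library totals only they were -0.07 for KIF18A and CKAP2, -0.05 for CDC25B, -0.04 for CCNB2, -0.02 for RACGAP1 and 0.00 for TTK. Without both 15-month-old animals they were -0.19 for CDC25B, -0.10 for KIF18A, -0.04 for RACGAP1, -0.01 for TTK and 0.01 for KIF20B. Without both animals over 20 months they were -0.07 for CCNB2 and KIF18A, 0.05 for KIF2C and 0.01 for KIF20B. KIF18A was at -0.04 with voom or age class as a block, KIF20B at 0.01 with DESeq2 or RLE scaling and 0.02 with both groups alone, and AURKA at 0.01 with both groups alone. With 1 animal left out the ranges were -0.22 to 0.13 for AURKA, -0.07 to 0.54 for CCNB1, -0.26 to 0.35 for CCNB2, -0.13 to 0.36 for CDC20, -0.15 to 0.22 for CDC25B, -0.30 to 0.07 for CDC25C, -0.07 to 0.30 for CENPE, -0.01 to 0.34 for CENPF, -0.14 to 0.18 for CKAP2, -0.06 to 0.23 for KIF14, -0.02 to 0.37 for KIF15, -0.24 to 0.24 for KIF18A, -0.10 to 0.09 for KIF20B, -0.04 to 0.37 for KIF23, -0.18 to 0.09 for KIF2C, -0.05 to 0.41 for NCAPG, -0.10 to 0.19 for RACGAP1 and -0.06 to 0.22 for TTK. The cause of these changes was not tested. The labels give the groups no shared replicate numbers; age class as a block joins vehicle and 48 h animals of like age.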

Other observations

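NCAPG and SPC25 each had a second locus of the same symbol on the opposite strand. That of NCAPG was at 5.71, 7.03 and 6.53 CPM in vehicle animals, 6.07, 8.44 and 8.32 CPM at 48 h and 9.68, 10.4, 10.3 and 7.37 CPM at 96 h, and did not pass at 96 h against vehicle (0.56 ± 0.19, edgeR adjusted p = 0.0658). That of SPC25 was at 2.38, 2.75 and 2.26 CPM in vehicle animals, 1.48, 1.62 and 1.17 CPM at 48 h and 1.36, 1.95, 1.57 and 1.96 CPM at 96 h. It was lower in every animal given gonadotropin than in any vehicle animal, and did not pass at 48 h (-0.79 ± 0.24, edgeR adjusted p = 0.0566) or at 96 h against vehicle (-0.52 ± 0.22, edgeR adjusted p = 0.128).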
